A study of Mus musculus with 68 samples.

Results

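The postnatal maturation of the normal mouse cerebellum was followed in 8 array samples of wild type (WT) cerebellum out of 68 arrays in the series. They were chosen by their labels alone, as the WT cerebella of the 4 youngest ages: newborn (0 d), 10 d, 20 d and 4 wks. Each age was measured in 2 pools, and each pool held total RNA of 3 mice of the FVB strain background, so that 6 mice stand behind an age. The WT mice were the controls of a study of prosaposin deficiency. The pools are the replicates, so a p-value measures the spread between pools and not between single mice. Beside them, 8 WT cerebrum pools of the same ages, 4 WT cerebellum pools of 12 and 18 wks, and 8 cerebellum pools of PS-/- mice, which lack prosaposin, at 0, 10, 20 and 25 d were used where they bear on a result. The main comparison set the 4 pools of 20 d and 4 wks against the 4 pools of 0 and 10 d, and the steps from each age to the next dated the changes.

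The cerebellum of the mouse is immature at birth. Granule neuron precursors divide in the external granular layer under the influence of Sonic hedgehog from Purkinje cells, leave the cell cycle, migrate inwards along the fibres of Bergmann glia and settle in the internal granular layer, where they become the most numerous neurons of the brain. In the same weeks Purkinje cells grow their dendrites, mossy and parallel fibre synapses form, and oligodendrocytes wrap the axons in myelin.

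Signals are the linear values deposited for each probe set, scaled on each array to a trimmed mean of 1500, and a log2 change is a difference of means of log2(signal + 16) after quantile normalization, given with its standard error (SE). A gene was read from the brightest of its probe sets, and it passed the test where the adjusted p of limma's moderated test was under 0.05. Probe sets differ in their sensitivity, so levels were not compared between genes. No detection calls were used here, so a low signal is not known to lie above background, and the size of a change from or to such a signal depends on the offset of 16. The median signal of an array was 277.3 to 351.5 in the 4 earlier pools and 353.9 to 400.2 in the 4 later ones (exact permutation test, two-sided, p = 0.0286, the smallest that 4 against 4 pools allow). RNA quality was read from actin, as the 3′ minus the 5′ probe set on the log2 scale, and this actin ratio was 0.288 to 0.377 in the earlier and 0.445 to 0.561 in the later pools (p = 0.0286 by the same exact test), while that of Gapdh overlapped between them. The pools of 1 age correlated at 0.927 at 0 d and at 0.945 to 0.957 at the other ages.

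The tissue label was checked against marker genes. Pcp2 and Gabra6, markers of Purkinje cells and granule neurons, had signals of at least 40996 and 12144 in all 6 pools from 10 d on, and the summed signal of 12 forebrain markers was 6623 to 14024 in the 8 cerebellum pools against 54214 to 98884 in the 8 cerebrum pools. Markers of brain stem and spinal cord were uneven between ages. The summed signal of 14 such markers was 19468 and 21974 at 0 d, 4973 and 6733 at 10 d, 7355 and 7410 at 20 d, and 3583 and 7249 at 4 wks. Slc6a4, the serotonin transporter carried by neurons of the raphe nuclei, had signals of 1444 and 1259.8 at 0 d, 982 and 2064 at 10 d, 461 and 19.1 at 20 d, and 1233 and 14.9 at 4 wks. Its pools of the same age differed widely at 20 d and at 4 wks. From 0 to 10 d 7 of the 14 markers fell (median −1.67), so a fall in that step moves with them, as does a main change that rests on the 0 d pools. What adjoining tissue adds to the results was not tested.

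Between the earlier and the later ages, 2433 of 18193 genes rose (13.4%) and 2995 fell (16.5%), 1042 and 1540 of them at least 2-fold. The step from 0 to 10 d held 1167 genes that rose (6.41%) and 752 that fell (4.13%). The step from 10 to 20 d held 1060 that rose (5.83%) and 1502 that fell (8.26%). From 20 d to 4 wks 41 rose (0.225%) and 29 fell (0.159%). In this last step 3295 genes had an unadjusted p of the moderated test under 0.05, against 4451 and 5231 in the steps before. It held 443 rises and 392 falls with array weights, and 0 and 0 with the 8 arrays fitted alone. As an alternative to the quantile step, each array was centred on its median. In the main comparison the median of all genes then moved from −0.04 to −0.16, and 1451 rose and 3929 fell. The share of rises among the called genes was 27% in place of 44.8%. The same centring gave shares of rises of 72% in place of 60.8% from 0 to 10 d (1250 rose, 487 fell), 14.5% in place of 41.4% from 10 to 20 d (416 rose, 2452 fell, with the median of all genes at −0.23) and 83.3% in place of 58.6% from 20 d to 4 wks (10 rose, 2 fell). With the actin ratio as a covariate 1311 rose and 1608 fell. The step from 0 to 10 d held 452 rises and 233 falls without WT cerebellum 10 d replicate 1, and the step from 10 to 20 d held 450 rises without WT cerebellum 20 d replicate 1 and 742 falls without WT cerebellum 10 d replicate 2. With the 0 d pools left out, an alternative chosen after seeing the data, 1245 genes rose and 1678 fell. The main changes of Cntn2, Gfap, Gpr17, Neurod1, Slc16a1 and Slc1a6 were then negative and those of Grm3 and Grm7 positive, opposite to those with all pools. The steps from 0 to 10 d given below for these genes are a different measure.

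By the rule for named genes, the rises were led by Exph5, Dao, Gabra6, Cbln3, Klk6, Grin2c, Gng13, Gabrd, Crtam and Fam107a, with log2 changes of 5.32 to 4.24. Gabra6 and Gabrd are subunits of GABA-A receptors, Grin2c is an NMDA receptor subunit and Cbln3 a synaptic organizer of granule neurons, while Dao encodes D-amino acid oxidase, which degrades the NMDA receptor co-agonist D-serine, and Klk6 a protease of oligodendrocytes. The falls were led by Igfbpl1, Mcm6, Mfap4, Uhrf1, Cenpa, Mki67, Dcx, Hmgb2, Birc5 and Crabp1, with log2 changes of −6.16 to −4.52. Of these, Mcm6 and Uhrf1 serve DNA replication, Cenpa, Mki67 and Birc5 mitosis, and Dcx, doublecortin, the microtubules of migrating neurons.

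**Figure D1:**
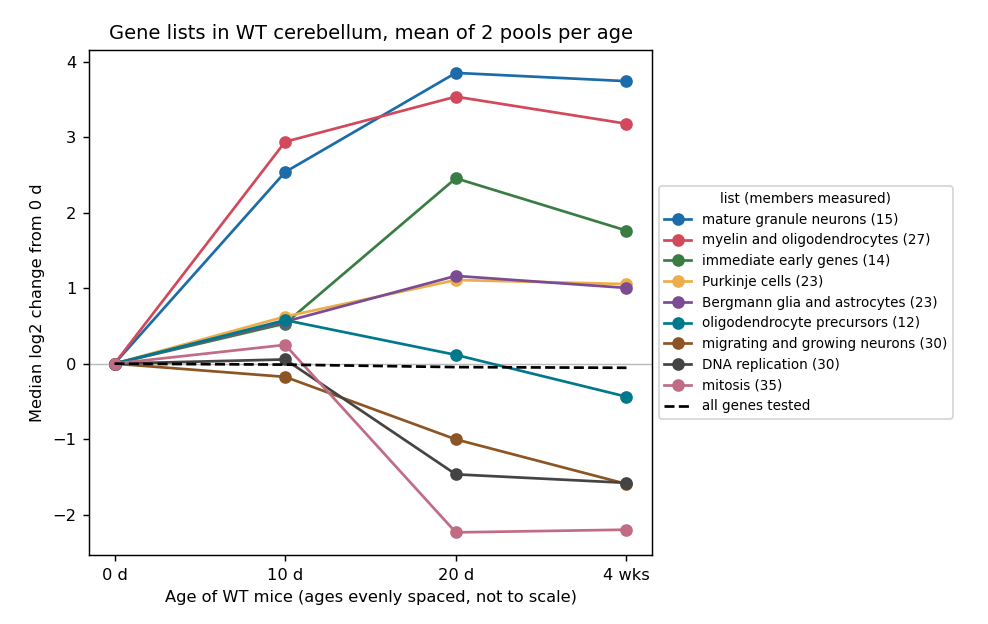
Median log2 change from 0 d over the members of 9 gene lists in WT cerebellum (vertical axis) at 4 ages (horizontal axis, evenly spaced), from the mean of 2 pools per age, with all genes tested as a dashed line. The myelin list reached 2.94 and the mature granule neuron list 2.54 by 10 d, while the mitosis list stood at 0.25 at 10 d and at −2.24 at 20 d.

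Counts of list members in the main comparison are to be read beside the shares over all genes, 13.4% that rose and 16.5% that fell. Counts of members in several lists rested on the 0 d pools. Without them the rises in the main comparison went from 5 to 1 among granule lineage transcription factors, from 14 to 8 among sphingolipid and lysosomal genes, from 16 to 6 among genes of glycolysis and oxidative energy, from 11 to 5 among immediate early genes, from 8 to 4 among GABA and glycine receptors, from 5 to 1 among neurofilaments and tubulins, from 4 to 1 among thyroid hormone genes and from 3 to 0 among genes of ketone and lactate use, and the falls among glutamate receptors from 7 to 3. With the actin ratio as a covariate 1 granule lineage factor and 9 sphingolipid and lysosomal genes rose, and 4 glutamate receptors, 4 microglial, 3 meningeal and 1 vessel wall gene fell. With arrays centred on their medians 8 genes of neurofilaments and tubulins fell in place of 4. The 2-group fit, which leaves the ages in the residual, called fewer members in most lists.

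Genes of cell division fell as a group, and they fell after 10 d. Of 35 measured genes of mitosis, 32 fell between the earlier and later ages and none rose, with a list median of −2.40 against −0.04 for all genes. None of the 35 passed the test from 0 to 10 d, 27 fell from 10 to 20 d, and none passed from 20 d to 4 wks. The summed signal of the list was 44393 to 67142 in the 4 earlier pools and 11836 to 15726 in the 4 later ones. In bulk tissue such a fall may come from fewer dividing cells or from less RNA in each, and the arrays cannot tell these apart.

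Mki67, which encodes the proliferation antigen Ki-67, had signals of 2502 and 1454 at 0 d, 2974 and 3190.2 at 10 d, 65.7 and 158 at 20 d, and 28.1 and 232 at 4 wks. Every later pool lay below every earlier one, and the log2 change was −4.74 ± 0.58 (adjusted p = 2.94e-06). Ccna2, cyclin A2, gave 2899 and 1948 at 0 d, 2909 and 2862 at 10 d, 214 and 319.6 at 20 d, and 355 and 318 at 4 wks. Its levels at 0 and 10 d were alike, and its step from 10 to 20 d was −3.69 ± 0.36. Birc5, survivin, a subunit of the chromosomal passenger complex, gave 1366 and 1069.5 at 0 d, 1608 and 1323 at 10 d, 56.6 and 44.3 at 20 d, and 21.3 and 132 at 4 wks. It fell by 4.77 ± 0.83 on the log2 scale from 10 to 20 d. The 3 members that did not pass were Foxm1, Mybl2 and Ndc80, with log2 changes of −0.06, −0.86 and −1.04.

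DNA replication genes also fell mostly after 10 d. Of 30 members, 24 fell and none rose in the main comparison, with a median of −1.45. From 0 to 10 d 2 fell, and from 10 to 20 d 19 fell. Mcm6, a subunit of the replicative helicase, had signals of 3979 and 3906 at 0 d, 4507 and 3789.7 at 10 d, 259.9 and 58 at 20 d, and 45.9 and 34.4 at 4 wks. That is a log2 change of −5.76 ± 0.39, against −1.69 ± 0.16 for Mcm7, another subunit of the same helicase. For Mcm6, 2 of 3 probe sets fell. Pcna, the sliding clamp of DNA polymerase, gave 21892 and 16861 at 0 d, 14317 and 15886 at 10 d, 5396 and 6538 at 20 d, and 8923 and 9047 at 4 wks. It fell by 1.19 ± 0.15 on the log2 scale, and was still at 8923 and 9047 at 4 wks. Fen1, Mcm2, Mcm10, Tyms, Pola1 and Cdc45 did not pass the test.

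The promoters of these genes are shown because the members moved together. Of 29 promoters of 28 of the 35 mitosis genes in RefSeq annotation on GRCm38.p6, taken from 250 bases before to 50 after the start of transcription, 22 held TTTGAA (75.9%), the core of the cell cycle genes homology region, on either strand, against 17.9% of 32851 promoters of all genes. CCAAT was held by 23 of 29 (79.3%) against 37.4% of all. In the 100 bases before the start Mki67 holds a TTTGAA but no CCAAT on either strand, its CCAAT matches lying further upstream. Below are these 100 bases for 5 members that hold both there, each on the strand of its gene. TTTGAA and CCAAT, or their reverse complements TTCAAA and ATTGG, are in capitals.
Cdk1 (chr10:69352913-69353012, minus strand): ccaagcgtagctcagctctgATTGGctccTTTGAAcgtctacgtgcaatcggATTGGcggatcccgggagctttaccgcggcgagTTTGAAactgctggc
Top2a (chr11:99024190-99024289, minus strand): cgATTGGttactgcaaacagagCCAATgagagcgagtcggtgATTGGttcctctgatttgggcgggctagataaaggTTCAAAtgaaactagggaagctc
Ube2c (chr2:164769829-164769928, plus strand): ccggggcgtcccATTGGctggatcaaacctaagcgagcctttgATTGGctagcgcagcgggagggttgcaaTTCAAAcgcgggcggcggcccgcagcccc
Cdc20 (chr4:118437344-118437443, minus strand): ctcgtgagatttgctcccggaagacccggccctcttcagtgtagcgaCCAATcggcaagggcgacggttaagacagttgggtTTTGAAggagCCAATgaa
Prc1 (chr7:80294376-80294475, plus strand): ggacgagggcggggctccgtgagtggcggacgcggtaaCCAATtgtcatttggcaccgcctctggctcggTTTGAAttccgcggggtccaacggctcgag
Cdk1, the kinase that drives entry into mitosis, fell by 4.03 ± 0.40 on the log2 scale, Top2a by 3.65 ± 0.46, Ube2c by 3.44 ± 0.38, Cdc20 by 2.41 ± 0.27 and Prc1 by 2.57 ± 0.45. Counted from the start of transcription, a TTTGAA begins at −15 in Cdk1 and at −18 in Cdc20, and a TTCAAA at −23 in Top2a and −29 in Ube2c. Among 30 promoters of 25 of the DNA replication genes, 4 held the E2F site TTTCCCGC (13.3%) against 1.07% of all promoters, those of Mcm3, Mcm7, Rfc3 and Cdc6. A pair of them is printed with the site, here as its reverse complement, in capitals.
Mcm7 (chr5:138172013-138172072, minus strand): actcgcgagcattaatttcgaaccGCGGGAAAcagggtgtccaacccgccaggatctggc
Cdc6 (chr11:98907989-98908048, plus strand): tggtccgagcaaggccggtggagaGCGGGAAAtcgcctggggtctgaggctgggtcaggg
A match of letters is a description of the promoter and shows no binding.

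The Sonic hedgehog pathway moved in both directions. Of 18 members 3 rose and 5 fell, where 13.4% of all genes tested rose and 16.5% fell. The list median of −0.17 was 0.07 without WT cerebellum 0 d replicate 2, so the counts are not read as a shift of the pathway. Shh itself, the ligand made by Purkinje cells, had signals of 1542 and 831 at 0 d, 1199.9 and 1596 at 10 d, 1619.7 and 1632 at 20 d, and 1921 and 1249 at 4 wks, with no change that passed. Mycn, the transcription factor through which the pathway drives granule precursors to divide, gave 3804 and 4199.9 at 0 d, 3408 and 3182 at 10 d, 572 and 842 at 20 d, and 521 and 581 at 4 wks. It fell by 2.62 ± 0.17 on the log2 scale (adjusted p = 5.65e-10), and its step from 10 to 20 d passed (−2.31 ± 0.24). Ccnd2, cyclin D2, rose from 0 to 10 d by 0.91 ± 0.24 and fell from 10 to 20 d by 2.25 ± 0.24.
The receptor and some of its partners rose. Ptch1, the hedgehog receptor and itself a target of the pathway, gave 7814 and 7952 at 0 d, 7764 and 8248 at 10 d, 16288 and 14098 at 20 d, and 16258 and 18826 at 4 wks. It rose by 1.07 ± 0.15, and the co-receptor Boc by 1.26 ± 0.27 and the hedgehog-binding inhibitor Hhip by 1.42 ± 0.28. Gli1, the other textbook target, had signals of 172 to 572 and did not pass.

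Transcription factors of the granule lineage separated by stage. Of 19 members, 5 rose and 7 fell over the main comparison, while 8 rose and 1 fell from 0 to 10 d and 1 rose and 7 fell from 10 to 20 d. With arrays centred on their medians, 2 rose and 7 fell in the main comparison. Atoh1, which defines granule precursors, had signals of 1163 and 1217 at 0 d, 1379 and 1169.8 at 10 d, 232 and 274 at 20 d, and 203 and 199.6 at 4 wks. It changed by 0.01 to 10 d and then fell by 2.56 ± 0.50 on the log2 scale, with no later pool above 274. Barhl1, a homeobox factor downstream of Atoh1, fell by 1.97 ± 0.55.
Insm1, a zinc finger factor of newborn neurons, gave 2492 and 3896 at 0 d, 13220.2 and 9204 at 10 d, 404 and 1119 at 20 d, and 209.6 and 194 at 4 wks. It rose by 1.86 ± 0.48 and then fell by 4.17 ± 0.48, a peak at 10 d of which both steps share the 10 d pools. Nhlh1, a bHLH factor of cells leaving the cycle, gave 651 and 885 at 0 d, 4043 and 2715 at 10 d, 243 and 432 at 20 d, and 302 and 177 at 4 wks. Both 10 d pools lay above the others, though the first of its steps missed the threshold (adjusted p = 0.168).
Neurod1, needed for granule neurons to survive, had signals of 6694 and 3459 at 0 d, 32644 and 24886 at 10 d, 25734 and 23558 at 20 d, and 26539 and 36756 at 4 wks. It rose by 2.59 ± 0.37 to 10 d, and its later steps did not pass. The nuclear factor I genes Nfia and Nfix, which promote granule neuron maturation, rose by 1.41 ± 0.33 and 1.20 ± 0.24 to 10 d, and Nfib by 1.65 ± 0.33 before it fell by 1.16 ± 0.33. Mef2d rose in both steps and reached 1.54 ± 0.18 in the main comparison. Meis2 gave 10199.9 and 11292 at 0 d, 1906 and 2967 at 10 d, 1151 and 1106 at 20 d, and 1303 and 1077 at 4 wks. It fell by 2.18 ± 0.24 to 10 d, a step in which 7 of 14 brain stem markers fell as well.

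At 10 d, 75 genes stood at a peak (0.412% of the genes tested), having risen from 0 to 10 d and fallen from 10 to 20 d, and 66 at a trough (0.363%). Both steps share the 10 d pools, and the numbers were 152 and 28 with arrays centred on their medians and 23 and 13 with the 8 arrays fitted alone. The peaks led by size of the smaller step were Mfap4, Scrt2, Mapk13, Gsdmd and 3830403N18Rik. Mfap4, a microfibril protein of the extracellular matrix, had signals of 994 and 229.5 at 0 d, 9349 and 5573 at 10 d, 31.2 and 29.4 at 20 d, and 25 and 21.3 at 4 wks. It was far lower in every later pool than in any earlier one, with a step from 10 to 20 d of −7.60 ± 0.85 (adjusted p = 1.2e-05). Scrt2, a zinc finger repressor of newborn neurons, gave 337 and 362 at 0 d, 6239 and 4085 at 10 d, 917 and 534 at 20 d, and 692 and 670.2 at 4 wks. It rose 14.1-fold and fell 7.67-fold on the log2(signal + 16) scale. Mapk13, Gsdmd and 3830403N18Rik did not exceed a signal of 655 in any pool.
The troughs were led by Hoxb5, 4933416O17Rik, Msr1, 4921536K21Rik and Pklr. Hoxb5 is a marker of the brain stem and spinal cord list, with signals of 2797 and 4885 at 0 d, 279 and 44.9 at 10 d, 1672 and 1968 at 20 d, and 865 and 276 at 4 wks. The summed signal of that list also fell to 10 d. The other 4 troughs did not exceed a signal of 656 in any of the 8 pools.

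**Figure D2:**
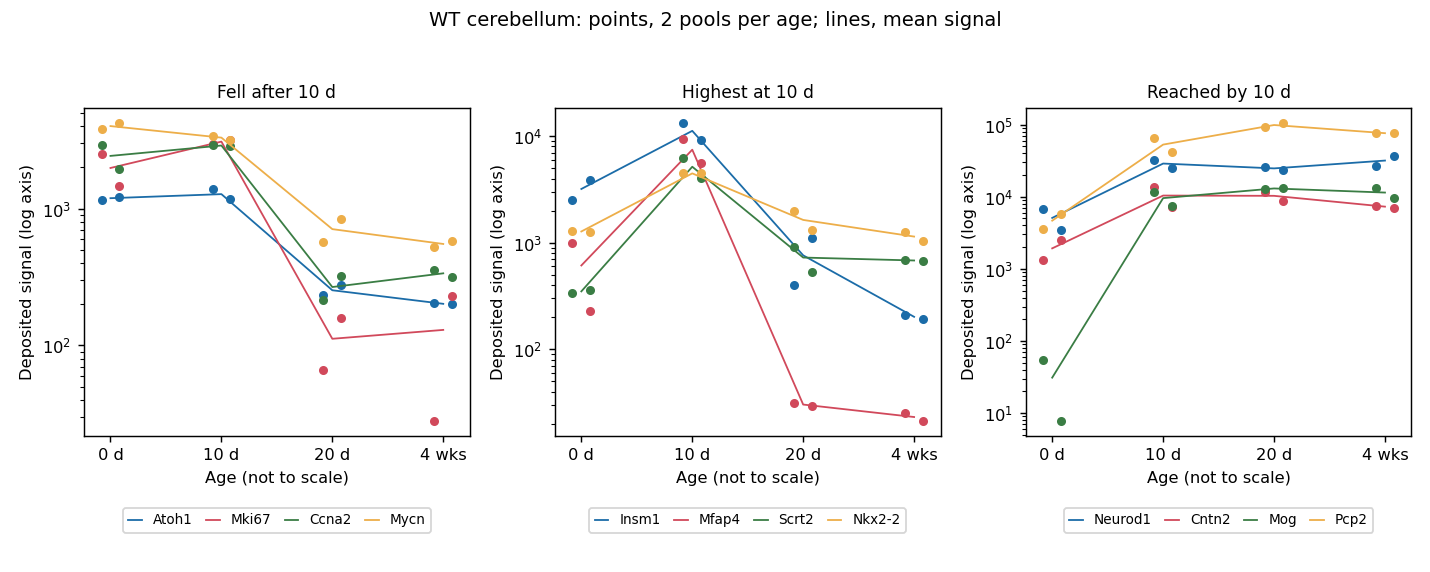
Deposited signals on a log axis for 12 genes in WT cerebellum at 4 ages (evenly spaced), with a point for each of 2 pools and a line through their mean. Atoh1, Mki67, Ccna2 and Mycn fell after 10 d (left), Insm1, Mfap4, Scrt2 and Nkx2-2 were highest at 10 d (middle), and Neurod1, Cntn2, Mog and Pcp2 had reached most of their later level by 10 d (right).

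Genes of migrating and growing neurons fell mostly between 10 and 20 d. Of 30 members 23 fell and 2 rose in the main comparison, with a median of −1.25. From 0 to 10 d 9 fell and 3 rose (median −0.18), from 10 to 20 d 18 fell and none rose (median −0.90), and from 20 d to 4 wks none passed. Dcx gave 21657 and 12403 at 0 d, 4993 and 5993 at 10 d, 346 and 880.3 at 20 d, and 315 and 319 at 4 wks. It fell in both steps, by 1.60 ± 0.43 and 3.42 ± 0.43 on the log2 scale, and all 4 of its probe sets fell. Igfbpl1, an IGF-binding protein-like gene of young neurons, gave 3404 and 1632 at 0 d, 2608 and 2449.8 at 10 d, 13.8 and 33.5 at 20 d, and 20.3 and 27.9 at 4 wks. It stayed level to 10 d and then came to 34 or less in every later pool, a log2 change of −6.16 ± 0.43 (adjusted p = 1.64e-09).
Sox11, a transcription factor of differentiating neurons, fell by 3.59 ± 0.16, Dpysl3, a collapsin response mediator of growth cones, by 2.94 ± 0.16, and Gap43, the growth cone protein, by 2.02 ± 0.17. The 2 that rose were Cntn2, the adhesion molecule TAG-1 of young granule axons, and Fez1. Cntn2 gave 1339.8 and 2503 at 0 d, 13573 and 7139 at 10 d, 11781 and 8756 at 20 d, and 7489.7 and 7059 at 4 wks. Its rise lay between 0 and 10 d (2.42 ± 0.34), as did that of Astn2, which takes part in granule neuron migration along glia (2.44 ± 0.50). Sema6a, a semaphorin of migrating granule neurons, rose by 1.02 ± 0.23 to 10 d and fell 3.99-fold from 10 to 20 d (adjusted p = 1.85e-05).

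Markers of mature granule neurons all rose. Of 15 members 15 rose, with a median of 2.69 and 10 of them from 0 to 10 d and 7 from 10 to 20 d. Their summed signal was 77501 and 81423 in the 0 d pools, 150129 and 203192 at 10 d, and 347352 to 392023 in the 4 later pools. Without the 0 d pools, with 10 d alone as the earlier age, 9 of 15 rose and none fell (median 1.42).
Gabra6, the GABA-A receptor subunit found almost only in granule neurons, had signals of 116 and 82.8 at 0 d, 20195 and 12144 at 10 d, 35211 and 33016 at 20 d, and 43054 and 50071 at 4 wks. It was below the array median at birth and rose by 7.17 ± 0.85 to 10 d (adjusted p = 1.19e-05), or by 7.39 with an offset of 1 and 6.64 with one of 64. Its further steps of 1.15 ± 0.85 and 0.58 ± 0.85 did not pass, and without the 0 d pools its main change was 1.44 (adjusted p = 0.222). Cbln3 gave 144 and 260.5 at 0 d, 10939 and 6087 at 10 d, 37392 and 30626 at 20 d, and 36988 and 42436 at 4 wks. It rose by 5.34 ± 0.84 to 10 d, and its next step, 2.08 ± 0.84, missed the threshold (adjusted p = 0.124).
Chn2, beta-chimaerin, a Rac GTPase-activating protein, gave 2054 and 1778 at 0 d, 14486 and 8637 at 10 d, 29013 and 25717 at 20 d, and 29426 and 32187 at 4 wks. It rose in both steps, by 2.54 ± 0.20 and 1.31 ± 0.20. Car4, carbonic anhydrase 4, rose by 3.25 ± 0.17. Calb2 and Kcnc1, calretinin and a fast potassium channel, rose mainly after 10 d, by 1.54 ± 0.32 and 2.05 ± 0.32 to 20 d. Rbfox3, the neuronal nuclear antigen NeuN, was already at 21212 and 23414 at birth and rose by 0.78 ± 0.12.

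Of 16 promoters of 12 of these genes 6 held TTGGCA, a short site of nuclear factor I proteins (37.5%), on either strand, against 14.1% of all 32851 promoters. TTGGCA shares the letters TTGG with ATTGG, the reverse complement of CCAAT. Promoters of Rbfox3, Kcnd2 and Neurod2, which rose by 0.78, 0.73 and 0.59, also held it. The matches of Gabra6, Cbln3 and Chn2, which had larger rises, are printed within 60 bases. They are in capitals, as TGCCAA where they lie on the other strand.
Gabra6 (chr11:42321087-42321146, minus strand): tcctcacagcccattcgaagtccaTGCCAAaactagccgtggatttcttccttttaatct
Cbln3 (chr14:55884367-55884426, minus strand): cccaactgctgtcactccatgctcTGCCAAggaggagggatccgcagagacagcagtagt
Chn2 (chr6:54264730-54264789, plus strand): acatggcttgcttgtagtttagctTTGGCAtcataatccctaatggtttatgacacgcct
This short site begins at −50 in Gabra6, at −146 in Cbln3 and at −104 in Chn2.

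Purkinje cell markers rose in part. Of 23 members 15 rose and 1 fell, with a median of 0.98, and 10 rose from 0 to 10 d. Pcp2, Purkinje cell protein 2, had signals of 3569 and 5729 at 0 d, 64413 and 40996 at 10 d, 92625 and 104268 at 20 d, and 75572 and 76169.6 at 4 wks. It rose by 3.50 ± 0.90 to 10 d. Pvalb, parvalbumin, a calcium buffer of Purkinje cells and interneurons, gave 689.6 and 915 at 0 d, 29561 and 16009.8 at 10 d, 50869 and 63614 at 20 d, and 61613 and 56926 at 4 wks. It rose in both steps, by 4.73 ± 0.23 and 1.32 ± 0.23.
Ppp1r17, the G-substrate, a phosphatase inhibitor of Purkinje cells, gave 248 and 323 at 0 d, 4673 and 1989 at 10 d, 5730.3 and 5789.6 at 20 d, and 15639.7 and 18957 at 4 wks. Its pools were higher at 4 wks than at 20 d, a step of 1.59 ± 0.40 that missed the threshold (adjusted p = 0.0731). Slc1a6, the Purkinje cell glutamate transporter, rose by 3.25 ± 0.30 to 10 d, and its pools stood at 26319.8 and 13483 there and at 11199.8 and 12282 at 4 wks. Lhx1, a transcription factor of Purkinje cells, gave 3336 and 2992 at 0 d, 3536 and 2637 at 10 d, 3329 and 2783 at 20 d, and 2921 and 3203 at 4 wks. Its levels were alike at all ages. Foxp2, which marks Purkinje cells and also other brain neurons, fell by 2.04 ± 0.31, from 10998 and 3326 at 0 d to 963 and 858 at 4 wks. Of 10 interneuron markers 3 rose and 2 fell, where 13.4% of all genes rose and 16.5% fell. Their median of 0.26 was −0.02 without the 0 and 20 d pools.

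Subunits of transmitter receptors moved in opposite directions. Of 18 genes of GABA and glycine signalling 8 rose and 6 fell, and the list median, 0.20, was −0.05 with arrays centred on their medians and −0.03 without the 0 d pools. Gabrd, the delta subunit of the extrasynaptic GABA-A receptors of granule neurons, gave 156 and 137 at 0 d, 6409 and 3116 at 10 d, 17024 and 20361 at 20 d, and 15054 and 14246 at 4 wks. It rose by 4.83 ± 0.26 to 10 d and by 2.15 ± 0.26 to 20 d. Against it, Gabra5, an alpha subunit of extrasynaptic receptors, gave 4501 and 2618 at 0 d, 1047 and 2566 at 10 d, 338 and 242 at 20 d, and 466 and 133 at 4 wks. It fell by 3.32 ± 0.31 on the log2 scale (adjusted p = 7.16e-08).
Among glycine receptors, Glra2, the alpha subunit of the fetal form, gave 8214 and 4055 at 0 d, 1164 and 2765 at 10 d, 215 and 212 at 20 d, and 343 and 294 at 4 wks. It fell by 3.83 ± 0.30, with a step of −1.70 ± 0.42 from 0 to 10 d, in which brain stem markers also fell, and without the 0 d pools its main change was −2.98. By contrast, Glra1, the adult alpha subunit, rose by 1.70 ± 0.54. Gabra3, Gabrg1, Gabrg3 and Glra3 also fell, and Gabrb1 and Gabrb2 rose. The chloride transporters Slc12a5, which lowers chloride in mature neurons, and Slc12a2, which raises it, both rose, by 0.85 ± 0.12 and 1.48 ± 0.21. Slc12a5 was at 28139 and 34125 already at birth.

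Of 22 glutamate receptor genes 5 rose and 7 fell, with a median of −0.09. Grin2c, the NMDA receptor subunit of mature granule neurons, had signals of 63.4 and 75.3 at 0 d, 1971 and 926 at 10 d, 9855 and 10174 at 20 d, and 4966 and 6054 at 4 wks. It rose by 4.01 ± 0.37 to 10 d and by 2.98 ± 0.37 to 20 d, and both 4 wk pools were below both 20 d pools, a step of −0.89 ± 0.37 that did not pass. Grin2b, the subunit of immature synapses, gave 819 and 1071 at 0 d, 499.7 and 926 at 10 d, 499.6 and 654 at 20 d, and 429 and 475 at 4 wks. It fell by 0.80 ± 0.19 on the log2 scale, a change small beside that of Grin2c, with ranges of the earlier and later pools that overlapped. Grin3a fell by 1.21 ± 0.20.
Grm4, a presynaptic receptor of parallel fibres, gave 1503 and 2188 at 0 d, 11229.6 and 5870.4 at 10 d, 39009 and 38653 at 20 d, and 19941 and 19184 at 4 wks. It rose in both steps, by 2.14 ± 0.27 and 2.28 ± 0.27. Grm5, a metabotropic receptor, gave 6995 and 4155 at 0 d, 2344 and 5892 at 10 d, 913 and 788 at 20 d, and 1308 and 725 at 4 wks. It fell by 2.20 ± 0.38 from 10 to 20 d, and Grm3 and Grm7 by 2.25 ± 0.32 and 2.10 ± 0.29 from 0 to 10 d. The falls of Grm3 and Grm7 lie in the step in which 7 of the 14 brain stem markers fell, and without the 0 d pools their main changes were 0.0314 and 0.13. The part of adjoining tissue in them was not tested. The AMPA receptor subunits Gria1 and Gria4 rose by 1.82 ± 0.15 and 1.46 ± 0.15, while Gria2 and Gria3 had changes of 0.10 and 0.27 that did not pass.

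Sodium channels and genes of the synaptic terminal also held members that rose and members that fell. Of 22 sodium and calcium channel genes 11 rose and 3 fell (median 0.49), and 5 fell without WT cerebellum 0 d replicate 2. Scn3a, the alpha subunit of embryonic neurons, gave 4794 and 2963 at 0 d, 688 and 2352 at 10 d, 279 and 188 at 20 d, and 596 and 239 at 4 wks. It fell by 3.09 ± 0.34, and the beta subunit Scn3b by 2.67 ± 0.24. Scn4b, the beta subunit linked to resurgent current, gave 137 and 76.2 at 0 d, 888 and 1100.2 at 10 d, 5827 and 3012 at 20 d, and 5985 and 3731 at 4 wks. It rose by 3.76 ± 0.21, Scn2b by 2.61 ± 0.18, Scn1a by 1.75 ± 0.29 and Scn8a by 1.65 ± 0.20. Among calcium channels Cacna1a, the P/Q type channel, rose by 1.27 ± 0.23 and the T type Cacna1h fell by 1.67 ± 0.22.
Of 28 genes of synaptic vesicles and release 19 rose and 2 fell (median 0.78), and without the 0 d pools 11 rose and 2 fell. Slc17a7, the vesicular glutamate transporter VGLUT1 of parallel fibres, gave 178 and 108 at 0 d, 8466 and 3902 at 10 d, 12133 and 8134 at 20 d, and 6456 and 7778 at 4 wks. It rose by 5.25 ± 0.39 to 10 d. Slc17a6, VGLUT2, which parallel fibres carry early and climbing fibres keep, gave 18561 and 12624 at 0 d, 8175 and 16248 at 10 d, 3608 and 2819.7 at 20 d, and 5311 and 3139.7 at 4 wks. It fell by 1.85 ± 0.39 from 10 to 20 d. Syt2, the fast calcium sensor of release, rose by 2.97 ± 0.28, while Stx1a, a syntaxin of the release machinery, fell by 1.68 ± 0.15 and stood at 11284 and 11396 at 0 d and 2259 and 1476 at 4 wks.

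**Figure D3:**
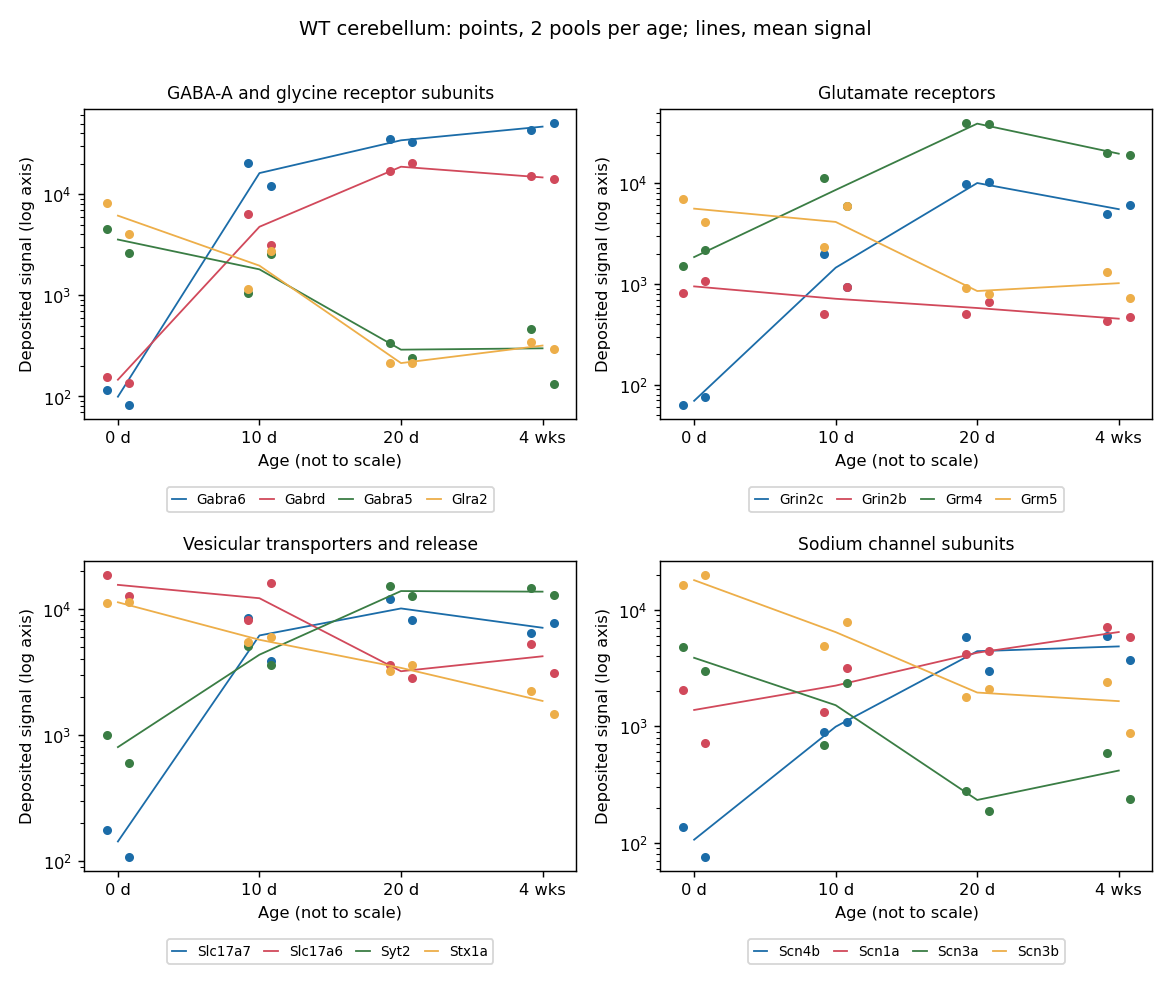
Deposited signals on log axes for 16 receptor, transporter, release and sodium channel genes in WT cerebellum at 4 ages (evenly spaced), with a point for each of 2 pools and a line through their mean. In each panel some genes rose from birth, such as Gabra6 from 116 and 82.8 at 0 d to 43054 and 50071 at 4 wks, while others fell, such as Scn3a from 4794 and 2963 to 596 and 239.

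Most markers of astrocytes and Bergmann glia rose in the main comparison. Of 23 members 15 rose and 3 fell (median 0.73), and without the 0 d pools 8 rose and 3 fell. Gfap, the glial filament protein, had signals of 1174 and 1426 at 0 d, 25526 and 16594 at 10 d, 16681 and 15537 at 20 d, and 11883 and 6586 at 4 wks. It rose by 3.95 ± 0.36 to 10 d, and the 4 wk pools were below the 20 d pools without passing the test. Gdf10, a growth factor of Bergmann glia, gave 3984 and 4946 at 0 d, 20630.2 and 10846 at 10 d, 21742 and 26816 at 20 d, and 17290.5 and 17267 at 4 wks. It rose by 1.75 ± 0.29 to 10 d and Septin4, a septin abundant in Bergmann glia, by 3.31 ± 0.22. Kcnj10, the glial potassium channel Kir4.1, gave 1464 and 1456 at 0 d, 7227 and 7433 at 10 d, 13906 and 11953 at 20 d, and 13359.9 and 15120.0 at 4 wks. It rose in both steps.
Fabp7, the brain lipid-binding protein of radial glia, gave 57302 and 49851 at 0 d, 42452 and 54826 at 10 d, 10734 and 10695 at 20 d, and 13320.5 and 23852 at 4 wks. It fell from 10 to 20 d by 2.15 ± 0.29. Tnc, tenascin C, fell by 1.22 ± 0.23, and Aldh1l1 by 0.58 ± 0.18. In the extracellular matrix list 6 of 17 members rose and 5 fell (median −0.33). With arrays centred on their medians 3 rose and 4 fell, with the actin ratio as a covariate 3 and 3, and without WT cerebellum 20 d replicate 1 3 and 4, while the median was −0.04 without 10 d replicate 2. Hapln4, a link protein of perineuronal nets, gave 280.5 and 464 at 0 d, 2502 and 1924 at 10 d, 6595 and 4370.1 at 20 d, and 5018 and 4684 at 4 wks. It rose by 2.55 ± 0.23, and Acan, aggrecan, by 0.96 ± 0.32. Ncan, neurocan, gave 10036 and 19495 at 0 d, 10925 and 15168 at 10 d, 7458 and 6113 at 20 d, and 2345 and 2098 at 4 wks. It fell by 1.76 ± 0.20, and was 1 of the few genes that also passed from 20 d to 4 wks (−1.67 ± 0.28, adjusted p = 0.0208). With the 8 arrays fitted alone no gene passed that step.

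Myelin genes rose together, and most of the rise had taken place by 10 d. Of 27 members 26 rose in the main comparison (median 1.75), 25 rose from 0 to 10 d (median 2.94) and 5 rose from 10 to 20 d. Their summed signal was 48601 and 51232 at 0 d, 336298 and 353762 at 10 d, and 336233 to 480734 at 20 d and 4 wks. Without the 0 d pools 8 rose and 1 fell (median 0.39), and with the ages left in the residual of a 2-group fit 9 rose.
Mog, myelin oligodendrocyte glycoprotein, gave 54.2 and 7.8 at 0 d, 11765 and 7331 at 10 d, 12644 and 13354 at 20 d, and 13369 and 9437 at 4 wks. It rose by 7.93 ± 0.33 to 10 d (adjusted p = 1.61e-12), a change from signals below the array median that was 8.93 with an offset of 1 and 6.72 with one of 64 in place of 16. It then changed by 0.50 ± 0.33 and −0.20 ± 0.33, neither of which passed. Mobp, another protein of compact myelin, gave 246 and 65.2 at 0 d, 11987 and 26080.4 at 10 d, 24993 and 17998 at 20 d, and 32192 and 24968 at 4 wks. It rose by 7.04 ± 0.41 to 10 d. Mbp, myelin basic protein, gave 11439.7 and 6069.6 at 0 d, 85429.8 and 84146 at 10 d, 101154 and 116177 at 20 d, and 88085 and 77729 at 4 wks. At birth it was already above the median signal of the arrays, and it rose by 3.30 ± 0.20 to 10 d.
Mal, Ermn, Cryab, Hapln2 and Gpr37 were the 5 members that also rose from 10 to 20 d. Hapln2, a link protein of nodes of Ranvier, gave 84.5 and 227 at 0 d, 324 and 400.0 at 10 d, 1574 and 1358 at 20 d, and 1713 and 1131 at 4 wks. It had the larger of its steps there (1.92 ± 0.42 after 1.38 ± 0.42). The enzymes that make the myelin lipid galactosylceramide and its sulfated form rose early, Ugt8a by 4.03 ± 0.29, Fa2h by 4.16 ± 0.31 and Gal3st1 by 1.71 ± 0.28 to 10 d. Gjc3 was the member that did not pass the main comparison (−0.05).

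Oligodendrocyte precursor genes had a different course. Of 12 members none rose and 6 fell in the main comparison, yet 4 rose and 1 fell from 0 to 10 d, and 6 fell from 10 to 20 d. Nkx2-2, a homeobox factor of cells about to differentiate, gave 1291 and 1259 at 0 d, 4466 and 4479 at 10 d, 1969 and 1302 at 20 d, and 1249 and 1035 at 4 wks. It rose by 1.75 ± 0.26 and fell by 1.46 ± 0.26. Bmp4 took the same course, with 1.27 ± 0.36 and −1.47 ± 0.36. Gpr17, a receptor of premyelinating oligodendrocytes, gave 1818 and 1367 at 0 d, 7581 and 8915 at 10 d, 5091 and 5296 at 20 d, and 3639.8 and 3109 at 4 wks. It rose by 2.37 ± 0.21 to 10 d, and its later decline did not pass by step. Pdgfra, the growth factor receptor of the precursors, gave 7366 and 7449 at 0 d, 4439 and 6862 at 10 d, 2482 and 2101 at 20 d, and 2064 and 1768 at 4 wks. It fell by 1.62 ± 0.15.
Cholesterol is a main lipid of myelin. Of 20 genes of its synthesis 2 rose and 7 fell, a count that moved with the settings. With arrays centred on their medians 13 fell, with the 8 arrays fitted alone 4, and with the actin ratio as a covariate 1. Without WT cerebellum 20 d replicate 1 and without 4 wk replicate 2 there were 3 falls, and without 20 d replicate 2 there were 4. From 0 to 10 d 5 rose and none fell, among them Dhcr7, the last enzyme before cholesterol (1.12 ± 0.26), Msmo1 (0.94 ± 0.18) and Ebp (1.26 ± 0.29). Dhcr7 gave 3085 and 4423 at 0 d, 10574 and 6124 at 10 d, 7955 and 7462 at 20 d, and 4174 and 2751 at 4 wks. It fell from 20 d to 4 wks by 1.24 ± 0.26 (adjusted p = 0.0423), but no gene passed that step with the 8 arrays fitted alone. The sterol element TCACNCCAC was held, on either strand, by 1 of 20 promoters of the list (5.0% against 1.24% of all promoters).

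Lysosomal and sphingolipid genes, among them the gene that the PS-/- mice lack, rose in part. Of 37 members 14 rose and 2 fell (median 0.33), and with arrays centred on their medians 8 rose and 3 fell (median 0.07). Psap, which encodes prosaposin, the precursor of the saposins that help lysosomal enzymes degrade sphingolipids, gave 20314 and 21222 at 0 d, 35286 and 29036 at 10 d, 47464 and 48442 at 20 d, and 54679.9 and 49474 at 4 wks. It rose by 0.68 ± 0.17 to 10 d and 0.55 ± 0.17 to 20 d, 1.03 ± 0.12 in the main comparison (adjusted p = 1.3e-06). Among lysosomal enzymes of sphingolipid breakdown Smpd1 rose by 0.56 ± 0.16, while Galc (−0.80), Arsa (0.36), Asah1 (0.03), Glb1 (−0.22) and Gla (0.08) did not pass.
Npc1, the lysosomal cholesterol transporter, rose by 1.26 ± 0.21, Tpp1, a lysosomal peptidase, by 0.86 ± 0.11 and Tfeb, a transcription factor of lysosomal genes, by 1.30 ± 0.24. Tfeb gave 458 and 559.9 at 0 d, 1070.5 and 782 at 10 d, 2541 and 1595 at 20 d, and 1601 and 1258 at 4 wks. Of 41 promoters of 31 genes of the list 3 held TCACGTGA, the core of the CLEAR element bound by Tfeb (7.32% against 0.974% of all promoters), those of Cln3, Ctsd and Gla. Those of Cln3 and Ctsd, both of which rose (0.57 ± 0.20 and 0.51 ± 0.14), are printed with the site in capitals.
Cln3 (chr7:126583323-126583382, minus strand): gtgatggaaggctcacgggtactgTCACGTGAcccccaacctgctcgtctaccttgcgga
Ctsd (chr7:142387891-142387950, minus strand): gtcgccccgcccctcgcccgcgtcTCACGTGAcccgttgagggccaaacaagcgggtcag

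Genes tied to thyroid hormone, a known driver of cerebellar maturation, included early rises. Of 9 members 4 rose and 2 fell, and 4 rose and 1 fell from 0 to 10 d. Hr, hairless, a corepressor induced by the hormone, gave 102 and 113 at 0 d, 2169 and 1346 at 10 d, 4922 and 4372 at 20 d, and 2118 and 2314 at 4 wks. It rose by 3.81 ± 0.25 to 10 d and 1.55 ± 0.25 to 20 d. Dio2, the deiodinase that activates the hormone, rose by 3.92 ± 0.40 to 10 d, and the hormone's target Klf9 by 2.10 ± 0.32. The receptor genes Thra and Thrb had main changes of −0.15 and 0.23 that did not pass. Rxrg, a partner receptor, fell by 3.05 ± 0.43.

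Immediate early genes, which neurons switch on with activity, rose after 10 d. Of 14 members 11 rose and 1 fell (median 1.59), 2 from 0 to 10 d and 7 from 10 to 20 d. Npas4, an activity-dependent transcription factor of neurons, gave 16.1 and 9.5 at 0 d, 65.4 and 37.4 at 10 d, 786 and 859 at 20 d, and 229 and 543 at 4 wks. It rose by 3.45 ± 0.66 from 10 to 20 d. Fos gave 1938 and 2358 at 0 d, 4375 and 2193 at 10 d, 15614 and 14906 at 20 d, and 6886 and 14755 at 4 wks. It rose by 2.40 ± 0.41 in that step, Nr4a1 by 2.02 ± 0.40 and Dusp1 by 2.31 ± 0.31. The pools at 4 wks were unequal in Fos, and the 20 d pools were the highest in Fos, Junb, Nr4a1, Npas4 and Dusp1 alike. Egr2 fell, at signals of 214 and 429 at 0 d and 34.1 and 109 at 4 wks.

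Imprinted genes of growth fell. Of 19 members 11 fell and 1 rose (median −0.84), and without the 0 d pools 6 fell and 1 rose. Nnat, neuronatin, gave 65900.4 and 101482 at 0 d, 60054 and 53545 at 10 d, 21163 and 22476 at 20 d, and 14902 and 7718 at 4 wks. It fell by 2.09 ± 0.16, and again from 20 d to 4 wks by 1.04 ± 0.22 (adjusted p = 0.0471). That last step held no called gene with the 8 arrays fitted alone. Cdkn1c, a cell cycle inhibitor, gave 6732 and 9847 at 0 d, 2884 and 2532 at 10 d, 1655 and 1079 at 20 d, and 1618 and 1446 at 4 wks. It fell by 1.61 ± 0.28 to 10 d and by 0.99 ± 0.28 to 20 d. Igf2r, the receptor that clears IGF2, was the member that rose (0.76 ± 0.22). Igf2, also a marker of the meninges, fell by 1.09 ± 0.17 beside 5 other meningeal genes.
Of 19 genes of fetal RNA binding and chromatin 1 rose and 5 fell, with Hmgb2 at −4.58 ± 0.36, Ezh2, the Polycomb methyltransferase, at −1.77 ± 0.21, and Hdac2 at −0.97 ± 0.15. Of 29 genes of glycolysis and oxidative energy 16 rose and none fell (median 0.34), but with arrays centred on their medians 5 rose and 1 fell (median 0.07). Of 11 genes of ketone and lactate use 3 rose and 3 fell: Slc16a1, the monocarboxylate carrier MCT1 through which suckling brain takes up ketone bodies, gave 6232 and 4506 at 0 d, 15897 and 17120.3 at 10 d, 10195 and 10705 at 20 d, and 8533 and 11197 at 4 wks. It rose by 1.64 ± 0.20 and fell by 0.64 ± 0.20. Among 18 genes of neurofilaments and tubulins 5 rose and 4 fell, with Nefh, the heavy neurofilament, at 1.21 ± 0.17 and Tubb3 at −1.81 ± 0.15.

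Of 15 microglial genes none rose and 7 fell in the main comparison (median −0.79). By step, 1 rose from 0 to 10 d, 6 fell from 10 to 20 d and 1, Mpeg1, rose from 20 d to 4 wks. That last step held no called gene with the 8 arrays fitted alone. In the main comparison 3 fell with the 8 arrays fitted alone and 4 without WT cerebellum 4 wk replicate 2, and the summed signals of the list overlapped, at 24281 to 38629 in the earlier and 28253 to 34371 in the later pools. P2ry12, a purine receptor of microglia, gave 929 and 534 at 0 d, 1275 and 2734 at 10 d, 569.5 and 647 at 20 d, and 837 and 788 at 4 wks. It rose by 1.38 ± 0.30 and fell by 1.73 ± 0.30. Tyrobp, an adaptor of microglial receptors, gave 1237 and 1750.4 at 0 d, 1431 and 1786 at 10 d, 543 and 665 at 20 d, and 829 and 973 at 4 wks. It fell by 1.13 ± 0.26, while Csf1r, the receptor on which microglia depend, was at 0.43 and did not pass.
In the vessel wall 4 of 18 genes rose and 3 fell (median −0.07), where 13.4% of all genes rose and 16.5% fell, so the list as a whole showed no clear shift. Slco1a4 and Slc2a1, transporters of the blood-brain barrier, rose by 1.97 ± 0.17 and 1.01 ± 0.17. Of 14 meningeal genes 6 fell and 1 rose, and their summed signal was 54590 to 80290 in the earlier and 32357 to 41061 in the later pools. None of 7 red blood cell genes passed. Of 11 genes of the choroid plexus and ependyma 2 rose and 1 fell (median 0.20), counts near the shares over all genes.

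In the step from 0 to 10 d the rises were led by Mog, Gabra6, Mobp, Il16 and Cbln3. Il16 gave 52.7 and 96.1 at 0 d, 7237 and 3664 at 10 d, 8254 and 9025 at 20 d, and 7077 and 7750.0 at 4 wks. It rose by 5.95 ± 0.33, with 2 of its 4 probe sets passing in the main comparison. The falls were led by Hoxb5, Isl1, Gbx2, Hoxb5os and Hoxb6, of which Hoxb5 and Isl1 are markers of the brain stem list and Hoxb6 and Hoxb5os lie in the same Hox cluster. Gbx2, a homeobox gene of the anterior hindbrain, gave 1045 and 1710.1 at 0 d, 91.4 and 99.1 at 10 d, 108 and 137 at 20 d, and 25.8 and 40.2 at 4 wks. It fell by 3.53 ± 0.46. Isl1, of motor neurons, gave 808 and 618 at 0 d, 9.1 and 48.6 at 10 d, 162 and 23 at 20 d, and 145 and 9.9 at 4 wks, and 7 of the 14 brain stem markers fell in this step (median −1.67). The part of adjoining tissue in such falls was not tested.

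In the step from 10 to 20 d the rises were led by Exph5, Hoxb5, Npas4, Dao and Crtam, and the falls by Mfap4, Igfbpl1, Uhrf1, Mcm6 and Mki67. Exph5, an effector of Rab27, gave 248 and 19.9 at 0 d, 372 and 349.6 at 10 d, 5817 and 4134 at 20 d, and 9345 and 12702 at 4 wks. It rose by 3.72 ± 0.61. Crtam, an adhesion molecule of the immunoglobulin family, gave 185 and 165 at 0 d, 266 and 274 at 10 d, 3343 and 2391 at 20 d, and 5953 and 7812 at 4 wks. It rose by 3.26 ± 0.48 (adjusted p = 0.000154). Dao gave 13.1 and 27.9 at 0 d, 695 and 275 at 10 d, 6346 and 3266 at 20 d, and 3511 and 3870.0 at 4 wks. It rose by 3.71 ± 0.58 and 3.36 ± 0.58 in the steps before 20 d.

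From 20 d to 4 wks the numbers depended on the fit: they were 0 rises and 0 falls with limma fitted to the 8 arrays alone (2242 genes at an unadjusted p under 0.05, against 3295 in the fit of 24 arrays), 0 and 1 without the intensity trend, and 443 and 392 with array weights. The rises were led by Ifit3, Mpeg1, Msrb3, 9330133O14Rik and 1110002L01Rik, which share a low level at 20 d. Ifit3, induced by interferon, gave 257 and 253 at 0 d, 384 and 130.4 at 10 d, 86.1 and 21 at 20 d, and 614 and 647 at 4 wks. It rose by 3.63 ± 0.59 (adjusted p = 0.0201) from 20 d pools that were the lowest of the 8. The falls were led by Mycl, Zdhhc12, Loxl1, Stk11ip and Col1a1. Mycl, a MYC family factor, gave 1872 and 3241 at 0 d, 2078 and 1969 at 10 d, 878 and 688 at 20 d, and 113 and 115 at 4 wks. It fell by 2.74 ± 0.33 (adjusted p = 0.00192). Loxl1, which crosslinks elastin, gave 1271 and 1986 at 0 d, 4605 and 3674 at 10 d, 2182 and 2346 at 20 d, and 730.3 and 664 at 4 wks. It fell by 1.76 ± 0.32, and with it the collagen genes Col1a1, Col4a1 and Col4a2, by 1.71 ± 0.35, 1.08 ± 0.19 and 1.30 ± 0.25.

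Between 4 wks and the mean of 12 and 18 wks 33 genes rose (0.181%) and 76 fell (0.418%), and 2047 had an unadjusted p under 0.05. These calls were unstable under alternatives chosen after seeing the data. With arrays centred on their medians 50 rose and 30 fell (62.5% of the calls rose in place of 30.3%, and the median of all genes was 0.14), and with the actin ratio as a covariate 15 and 47. Without WT cerebellum 4 wk replicate 1 there were 8 and 13, without 4 wk replicate 2 8 and 36, without 18 wk replicate 1 8 and 37, without 18 wk replicate 2 10 and 42, without 12 wk replicate 1 39 and 50, and without 12 wk replicate 2 19 and 60. In the fit of all pools myelin genes supplied 7 of the falls, among them Mog (−1.39), Ugt8a (−1.88) and Mal (−1.17), and cholesterol synthesis genes 4, among them Hmgcs1 (−1.27) and Cyp51 (−1.20). None of the 15 granule neuron markers or the 23 Purkinje cell markers passed.

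The same comparison in WT cerebrum, where 2183 genes rose and 2323 fell, was used to find where the regions differ. The difference between the regions in the later minus earlier change was positive for 556 genes (3.06%) and negative for 821 (4.51%), and with arrays centred on their medians for 566 and 434 (a share of positive differences of 56.6% in place of 40.4%). This fit treated the pools of both regions as independent, although the regions appear to come from the same mice. With equally numbered pools as a block, chosen after seeing the data, the difference was positive for 785 genes and negative for 1106. With the actin ratio as a covariate the numbers were 55 and 55. In cerebrum this ratio was 0.215 to 0.484 in the earlier and 0.634 to 0.856 in the later pools. In cerebellum it was 0.288 to 0.377 and 0.445 to 0.561, so it moved with age by unlike amounts in the regions. The part of RNA quality in the region differences was not tested. In both regions together 2483 genes passed in the same direction, 52 rose in cerebellum and fell in cerebrum, and 64 did the opposite. WT cerebrum 20 d replicate 1 held granule neuron transcripts, with Gabra6 at 3642, Cbln3 at 2622 and Fat2 at 1588, against 456, 203 and 51 in replicate 2. Without that pool the differences were positive for 508 and negative for 679 genes, and that of Gabra6 was 4.69.

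Of the 15 granule neuron markers 11 had the more positive change in the cerebellum (median difference 2.14). Dao, Crtam, Sla, Cbln3 and Gabra6 led, with differences of 4.61 ± 0.58, 4.32 ± 0.48, 4.25 ± 0.34, 3.99 ± 0.84 and 3.89 ± 0.85. In the cerebrum Crtam gave 71.4 and 86.3 at 0 d, 96.5 and 65.3 at 10 d, 289 and 81.9 at 20 d, and 115 and 52.1 at 4 wks. It moved there by −0.06, against 4.26 in the cerebellum. Sla, a Src-like adaptor, gave 636 and 402 at 0 d, 2289.7 and 1350.3 at 10 d, 1979 and 1909 at 20 d, and 1883 and 2342 at 4 wks in the cerebellum. In the cerebrum it gave 9539.8 and 9874 at 0 d, 3752 and 3442 at 10 d, 565 and 767 at 20 d, and 796 and 604 at 4 wks. It rose in the former by 1.13 ± 0.24 and fell in the latter by 3.12 ± 0.24. Of 23 Purkinje cell markers 9 had the more positive change in the cerebellum, with Ppp1r17 at 3.68 ± 0.40.
Negative differences were led by Vip, Gm11627, Cenpa, Psrc1 and Vxn, at −3.76 ± 0.34, −3.72 ± 0.73, −3.71 ± 0.85, −3.68 ± 0.59 and −3.53 ± 0.28. Vip, the neuropeptide of cortical interneurons, gave 579 and 441 at 0 d, 283 and 860.1 at 10 d, 197 and 212 at 20 d, and 305 and 408 at 4 wks in the cerebellum. In the cerebrum it gave 503 and 442 at 0 d, 3240.0 and 2306 at 10 d, 4912 and 6195 at 20 d, and 10376 and 9070.4 at 4 wks. It rose in the latter by 2.62 ± 0.24 and fell in the former by 1.14 ± 0.24. Cenpa, the centromeric histone, gave 1321 and 1353 at 0 d, 1876 and 1524 at 10 d, 96.5 and 30.6 at 20 d, and 71.8 and 13.3 at 4 wks. In the cerebrum it gave 1440.1 and 1338 at 0 d, 302 and 924 at 10 d, 393 and 613 at 20 d, and 356 and 415 at 4 wks. In the cerebellum it stayed high to 10 d, while the cerebral change of −1.16 missed the threshold (adjusted p = 0.191).
Of the 35 mitosis genes 6 had the more negative change in the cerebellum and none the opposite (median difference −0.89). Of the 27 myelin genes 9 had the smaller rise in the cerebellum. Mobp stood at 11987 and 26080.4 in the cerebellum and at 5429 and 9418 in the cerebrum at 10 d, and at 24993 and 17998 and 55251 and 63813 at 20 d (difference −2.74 ± 0.41). Mog stood at 11765 and 7331 in the cerebellum and at 1516 and 1864 in the cerebrum at 10 d, with levels of 9437 to 13369 and 9549 to 11925 thereafter. Of 15 microglial genes 4 had the more negative change in the cerebellum, and 4 rose in the cerebrum.

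**Figure D4:**
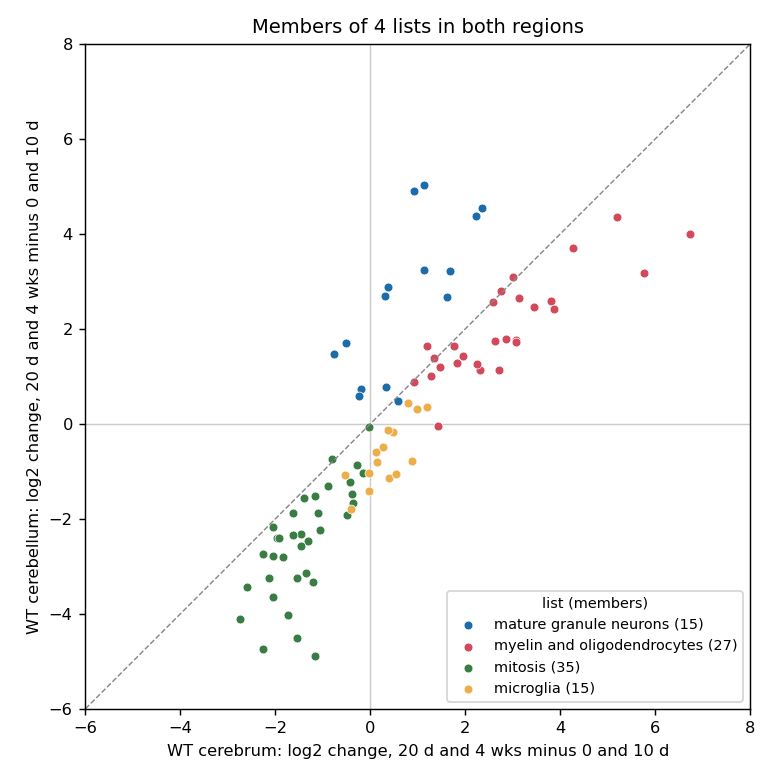
Log2 change from 0 and 10 d to 20 d and 4 wks in WT cerebellum (vertical axis) against the same change in WT cerebrum (horizontal axis), with a point for each gene of 4 lists and the line of equal change dashed. Most granule neuron markers lie above the line, up to 5.02 in the cerebellum, and mitosis genes reach −4.88 there against −1.16 in the cerebrum for Cenpa, while most myelin genes lie below it.

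PS-/- cerebellum offers the same ages up to 20 d in pools that share no array with WT, but its oldest pools are of 25 d in place of 4 wks. There 2075 genes rose (11.4%) and 2286 fell (12.6%) from 0 and 10 d to 20 and 25 d. Of the 2433 genes that rose in WT, 1447 (59.47%) passed in the same direction in PS-/- and 1 in the other, and of the 2995 that fell, 1676 (55.96%) passed in the same and 12 in the opposite direction. Gabra6 gave 98.5 and 55.5 at 0 d, 17701 and 11549 at 10 d, 41678 and 51418 at 20 d, and 28768 and 43344 at 25 d in PS-/- mice. Mki67 gave 1731 and 1739 at 0 d, 8711 and 2929 at 10 d, 17.4 and 79.2 at 20 d, and 164 and 185 at 25 d. Both had the WT course, with changes of 5.07 ± 0.25 and −4.86 ± 0.42. Of the mitosis list 34 of 35 genes fell, of the granule neuron markers 13 of 15 rose and of the myelin list 24 of 27 rose.
Of the 15 microglial genes 10 rose in PS-/- and none in WT. Cd68, a lysosomal protein of microglia and macrophages, gave 810.2 and 788 at 0 d, 854 and 863 at 10 d, 1714 and 1182 at 20 d, and 4906 and 4160.4 at 25 d in PS-/- mice. In WT it gave 543 and 669 at 0 d, 570.5 and 673 at 10 d, 325 and 492 at 20 d, and 410.0 and 362 at 4 wks. The change was 1.55 ± 0.22 in PS-/- and −0.81 ± 0.25 in WT. The difference between the genotypes was not tested here.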

How the data were processed

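Total RNA of WT and PS-/- mice was hybridised to 1-colour Affymetrix arrays. The deposited signal intensity of each probe set was made by the authors, with GCOS 1.1 named in the submitters' processing notes and each array scaled to a trimmed mean of 1500 (2% trimmed at each end). Samples were grouped by genotype, region and age from the source names in their labels. Here log2(signal + 16) was quantile normalized over all 68 arrays, which include other genotypes not analysed here, and a mean per region and age was fitted to 24 WT arrays (12 residual degrees of freedom) with limma 3.58.1 in R 4.3.3, with eBayes and an intensity trend. PS-/- cerebellum was fitted apart. P-values were adjusted by Benjamini-Hochberg over 45037 probe sets, after 64 control probe sets were left out, with calls at an adjusted p under 0.05. A gene was read from its probe set with the highest mean over all arrays (18193 genes), so genes with near-identical copies are uncertain. Of 45101 probe sets 34958 had 1 gene symbol, 932 several and 9211 none.

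Named genes were the 10 genes with the largest log2 change in each direction among those called, with groups that do not overlap and a mean in the higher group at or above the median of all probe sets, and by the same rule 5 in each direction for each step and, without the overlap condition, for the difference between regions. To these came the 5 peaks and 5 troughs at 10 d with the largest smaller step, the 6 list members with the smallest p in the main comparison, all members of 5 lists, and the 5 brightest members of each cell type list. Other list members named were chosen after their values were seen. The members and all gene lists were chosen with earlier results of these data known. Of 676 list entries 617 were measured. On simulated data for the main comparison with 45037 probe sets, 51 of 100 changes of 1 and 97 of 100 changes of 2 on the log2 scale were recovered, with 12 false calls. Only 200 probe sets were moved there, all with a mean at or above the median, with independent normal noise and no other age effect. In the data 5328 probe sets rose and 5743 fell, and dim ones were included. The simulated figures are therefore not the power or error rate of the real comparison. Array number limits the precision. Alternatives changed the normalization, the offset, a filter on dim probe sets, the probe set rule, the variance model, the arrays fitted, the replicate block, the actin ratio and single pools.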

Additional observations from a re-analysis of the deposited data

Results flagged for a closer look

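The later minus earlier change differed between WT cerebellum and WT cerebrum, by the interaction term of the limma fit, for the genes below. It was more positive in the cerebellum for 556 genes and more negative for 821, or for 55 and 55 with the actin ratio as a covariate. Of the 556, 388 rose in the cerebellum and 211 fell in the cerebrum, and of the 821, 583 fell in the cerebellum and 289 rose in the cerebrum. The log2 difference, cerebellum minus cerebrum, was 4.61 for Dao, 4.32 for Crtam, 4.25 for Sla, 3.99 for Cbln3 and 3.89 for Gabra6. It was −3.76 for Vip, −3.72 for Gm11627, −3.71 for Cenpa, −3.68 for Psrc1 and −3.53 for Vxn.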

How the results depend on the processing

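Median centring gave 1451 rises in the main comparison, 487 falls from 0 to 10 d, 416 rises and 2452 falls from 10 to 20 d, 10 and 2 from 20 d to 4 wks, 434 negative differences between regions, 152 peaks and 28 troughs. In PS-/- mice it gave 1395 and 3088. The actin covariate gave 1311 and 1608 in the main comparison, 0 and 1 from 20 d to 4 wks, 55 and 55 between regions, 48 peaks and 29 troughs. The 2-group fit with ages in the residual gave 956 and 1375 in the main comparison. Chosen after seeing the data, leaving out the 0 d pools gave 1245 and 1678, and the 0 and 20 d pools 1000 and 1291. Quantile normalization over the 8 arrays gave 555 and 208 from 0 to 10 d, 417 and 632 from 10 to 20 d, 0 and 0 from 20 d to 4 wks (2270 genes at an unadjusted p under 0.05), 24 peaks and 13 troughs. The 8 arrays alone in the fit gave 562 and 203, 415 and 628, and 0 and 0 in those steps, 23 peaks and 13 troughs. Without the intensity trend there were 760 and 419 from 0 to 10 d, 657 rises from 10 to 20 d, 0 and 1 from 20 d to 4 wks, 275 and 440 between regions, 46 peaks and 26 troughs. Array weights gave 565 and 231 from 0 to 10 d, 443 and 392 from 20 d to 4 wks, 37 peaks and 14 troughs. For that last step a filter on dim probe sets gave 146 and 121, the unmoderated test 16 and 4, and all 68 arrays 82 and 50. From 4 wks to 12 and 18 wks, alternatives chosen after seeing the data gave 50 and 30 with median centring, 15 and 27 without the trend, and 15 and 47 with the actin covariate. The causes were not tested.

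Leaving out 1 pool at a time gave, lowest to highest, 1973 (without WT cerebellum 4 wk replicate 1) to 2621 rises and 2419 to 3026 falls in the main comparison. It gave 452 (without 10 d replicate 1) to 1267 rises and 233 to 886 falls from 0 to 10 d, 450 (without 20 d replicate 1) to 947 rises and 742 (without 10 d replicate 2) to 1129 falls from 10 to 20 d, and 0 (without 4 wk replicate 2) to 21 rises and 1 (without 20 d replicate 2) to 28 falls from 20 d to 4 wks. Between regions it gave 316 (without WT cerebrum 0 d replicate 2) to 835 (without WT cerebellum 0 d replicate 2) and 490 to 1134, with 26 (without 10 d replicate 1) to 111 peaks and 17 (without 20 d replicate 2) to 95 troughs. From 4 wks to 12 and 18 wks it gave 8 to 39 rises and 13 (without WT cerebellum 4 wk replicate 1) to 60 falls. In PS-/- mice it gave 1587 to 2085 and 1605 to 2265. An age left with 1 pool was assumed to vary like the others.

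The deviations of equally numbered pools correlated at −0.23 to 0.12 between ages of WT cerebellum. By the same check cerebellum and cerebrum pools of 1 age correlated at −0.05 to 0.24, the highest at 0 d. With 1 difference between pools per age and region, this check cannot exclude a pairing of the regions. The paper counts its mice per genotype and time point, collects cerebrum and cerebellum, and has a random effect of subject in its model. By this account both regions appear to come from the same mice. Whether equally numbered pools of the regions held the same mice is not stated there. The main fit treated the pools of both regions as independent. With equally numbered pools of both regions as a block, an alternative chosen after seeing the data, the region difference was positive for 785 genes and negative for 1106. With the replicate number as a block, 17 rose and 7 fell from 20 d to 4 wks, from 4 wks to 12 and 18 wks 22 and 51, and the other counts stayed within 1.5 times of those without it.

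The 328 gene values recomputed under up to 35 alternatives kept their direction and their side of the threshold 6553 times, lost the threshold 564 times, gained it 62 times and changed sign 19 times. With the mean of all probe sets Msmo1 was at −0.29 from 0 to 10 d. Without the 0 d pools the main changes were −0.18 for Cntn2, −0.75 for Gfap, −0.98 for Gpr17, 0.0314 for Grm3, 0.13 for Grm7, −0.0115 for Neurod1, −0.69 for Slc16a1 and −0.22 for Slc1a6. Without the 0 and 20 d pools they were 0.27 for 1110002L01Rik, −0.43 for Cntn2, −0.0082 for Fa2h, −0.46 for Gal3st1, −1.19 for Gfap, −1.31 for Gpr17, 0.32 for Grm3, −0.0851 for Nefh, −0.73 for Slc16a1 and −0.63 for Slc1a6. Dim probe sets and 2 pools an age limit what can be called.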
